A study of Arabidopsis thaliana with 42 samples.

Results

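CBP60g and SARD1 are closely related plant transcription factors of the calmodulin-binding CBP60 family, and the comparison described here asked which genes of the Arabidopsis leaf answered bacterial infection differently when both were mutated. The study covered 7 genotypes, each mock-treated or infected, in 3 independent experiments with 1 library per combination, which gave 42 libraries in all. The comparison used the 12 libraries of 4 groups: wild-type Col-0 mock, wild-type Col-0 infected, cbp60g sard1 mock and cbp60g sard1 infected, each with 3 libraries. The labels spell the double mutant "chp60g sard1", read here as cbp60g sard1, and the mutant alleles are not given in the sources used here. The mock groups received 5 mM magnesium sulfate. The infected groups received Pseudomonas syringae pv. maculicola ES4326, abbreviated Pma, in the same solution at an OD600 of 0.0002. Mature rosette leaves numbered 6 to 8 of plants kept at 22 °C were collected 24 h after infiltration, and 2 leaves made up a sample. For each of 15161 genes the response difference was the log2 change from mock to Pma in cbp60g sard1 minus the same change in wild type, with the experiment as a block. A positive value marks a higher response in the mutant.

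As background, salicylic acid is the hormone that drives much of the defence of Arabidopsis against bacteria that feed on living cells. During infection it is made mainly from isochorismate in the chloroplast, it acts through the NPR receptors, and its output includes the PR genes. CBP60g and SARD1 bind and activate genes for its synthesis and for the synthesis of N-hydroxypipecolic acid, the mobile signal of systemic resistance, and mutants lacking both factors make little salicylic acid after infection. Jasmonate signalling, promoted by the bacterial toxin coronatine, and salicylic acid signalling are known to restrain each other.

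The 12 libraries held 1029735 to 2129360 counts each, over 16837 to 18516 detected loci. Levels are given as CPM, the counts scaled to a common size of the TMM-adjusted library, without correction for length, since each transcript is counted at its 3′ end. Replicates of a group differed by more than counting noise in all 12 pairs, with a chi-square per degree of freedom of 3.82 to 25.5, and the largest value belonged to cbp60g sard1 Pma experiments 1 and 3. The cbp60g sard1 Pma library of experiment 3 stood apart in many of the genes below, and results that rest on it are given with and without it. In class medians given below, experiment 3 of the infected triple mutant cbp60a cbp60g sard1 shifted the same way.

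The response to Pma differed between cbp60g sard1 and wild type for 1032 of 15161 genes, 6.81% of those tested (adjusted p under 0.05 in edgeR's quasi-likelihood test, adjusted over all tested genes as are all adjusted p-values below). The response was lower in the mutant for 483 genes (3.19%) and higher for 549 (3.62%). Without adjustment, 3407 genes had a p under 0.05. Of the called genes, 481 of the lower and 540 of the higher had the same sign in all 3 experiments taken alone. Because the genes were called on these same experiments, that agreement is largely fixed by the choice. The count rested on few libraries. It was 281 without the cbp60g sard1 Pma library of experiment 3, of which 278 were among the 1032, and 98 without experiment 2 and 28 without experiment 3. Leaving out the wild-type mock library of experiment 1 gave 558 genes, the wild-type Pma library of experiment 1 gave 626, that of experiment 3 gave 488, and the cbp60g sard1 mock library of experiment 3 gave 513. No called gene changed sign in these 7 fits, which share most of their libraries with the main one. Without the cbp60g sard1 Pma library of experiment 1, 1 called gene did. Of 61 called genes that are named in the text or by its rule, 24 kept their call whichever single library was left out: SARD1, CBP60G, AT5G57580, ICS1, AT5G52810, PR1, LURP1, PCR1, GRXS13, NIMIN1, NIMIN-2, WRKY70, WRKY54, WRKY53, MPK11 and G6PD4 with a lower response, and AOS, CYP79B3, BAM5, ATCSLA09, TT4, EXPA10, XTH6 and RBCS3B with a higher one. The other 37 lost it without at least 1 library, 35 of them without the cbp60g sard1 Pma library of experiment 3. Of the 24, all but GRXS13, BAM5 and ATCSLA09 lost their call without the whole of experiment 3. WRKY70, WRKY54 and WRKY53 also lost it without the replicate block. GRXS13, BAM5 and ATCSLA09 were the 3 of the 61 that kept their call in all 20 other settings. Only the 12 libraries of the comparison were left out singly.

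Most lower calls were genes that Pma raised in wild type. Of the 483, 248 rose in wild type and were not called in the mutant, with median log2 changes of 1.96 and 0.06. A further 165 rose in both genotypes, by a median of 3.34 in wild type and 1.42 in the mutant. Another 23 rose in wild type and fell in the mutant, 43 were not called in wild type and fell in the mutant, and 4 fell in both. The higher calls were mostly genes that Pma lowered: 266 of 549 fell in both genotypes, with median log2 changes of -4.52 in wild type and -2.11 in the mutant, and 134 fell in wild type and were not called in the mutant. A further 76 were not called in wild type and rose in the mutant, 48 rose in both, and 25 fell in wild type and rose in the mutant.

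A response can differ because the mutant started from another mock level, because it reached another Pma level, or both. The response difference is the Pma level difference (mutant minus wild type in infected leaves) minus the mock level difference (mutant minus wild type in mock leaves), so each called gene was placed by the larger term, taken as dominant where it was at least 2 times the other. The Pma level differed for 1986 genes (13.1% of those tested), with 1347 higher (8.88%) and 639 lower (4.21%) in the mutant. The mock level differed for 70 genes (0.462%), with 69 higher (0.455%) and 1 lower (0.0066%) in the mutant, and 58 of the 70 were among the genes with a lower response. The Pma count was 832 without the cbp60g sard1 Pma library of experiment 3, 1151 without the wild-type Pma library of experiment 3 and 1245 without that of experiment 1. The mock count was 27 without the cbp60g sard1 mock library of experiment 1, 19 without the wild-type mock library of experiment 2, and 0 in edgeR without the wild-type mock library of experiment 1 or 3 or the cbp60g sard1 mock library of experiment 3, where 1086, 893 and 1098 genes had an unadjusted p under 0.05.

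The lower and higher calls divided differently between these classes. Of the 549 genes with a higher response, 514 (93.6%) differed mainly at the Pma level, with a median Pma level difference of 2.11 and a median mock level difference of -0.25. Only 2 of them differed mainly at the mock level, and 33 (6.01%) at both levels in opposite directions. Of the 483 genes with a lower response, 115 (23.8%) differed mainly at the Pma level, 125 (25.9%) mainly at the mock level, and 243 (50.3%) at both. In the mock class the median mock level difference was 1.71 and the median Pma level difference -0.46, and 50 of its 125 genes passed the test of the mock level itself. In the class with both, the medians were 0.97 at the mock level and -0.98 at the Pma level. Of its 243 genes, 8 passed the test of the mock level, 114 that of the Pma level and 124 neither. Among the 483 lower genes, 3 passed both tests and 198 neither. The classes rest on fitted sizes and do not take their errors into account. Because the genes were picked on the difference of these terms, opposite signs within a called gene are partly fixed by that choice and the class sizes are given as a description.

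**Figure D1:**
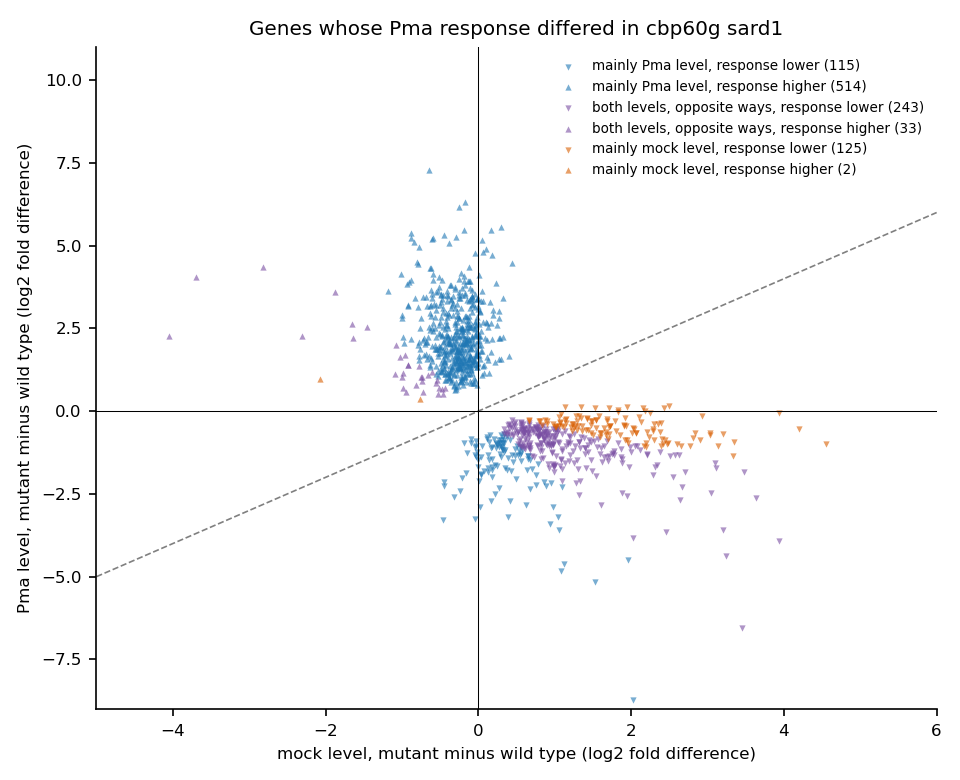
Mock level difference (horizontal, log2) and Pma level difference (vertical, log2) between cbp60g sard1 and wild type for the 1032 genes whose Pma response differed; each point is a gene, coloured by level class, and on the dashed line the response would be equal. Genes with a higher response sit above the line and close to a mock difference of 0, while those with a lower response spread below it along the mock axis (125 mainly at the mock level, 243 at both levels).

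Medians of the log2 level relative to the wild-type mock mean describe the classes library by library. The genes were chosen and classed on these 12 libraries, so the order of the group medians follows from that choice, and what the medians add is the spread between experiments. The 125 mock-class genes stood at 1.64, 1.19 and 1.79 in the cbp60g sard1 mock libraries of experiments 1, 2 and 3 and at 0.15, 0.03 and -0.16 in the wild-type mock libraries. The same genes stood at 2.71, 2.59 and 2.65 in wild-type Pma and at 2.57, 2.33 and 1.48 in mutant Pma, where experiment 3 was the lowest. The 514 Pma-class genes with a higher response stood at -2.91, -2.79 and -2.71 in wild-type Pma and at -1.44, -1.24 and -0.65 in mutant Pma, with experiment 3 again farthest from wild type. For the mock class, in the triple mutant cbp60a cbp60g sard1, mock medians were 1.45, 0.47 and 1.3, and in sid2, a mutant of the isochorismate synthase gene ICS1, they were 0.74, -0.08 and 0.04, lower than the triple mutant in each experiment. After Pma this class stood at 2.37, 2.24 and 1.59 in the triple mutant, with experiment 3 lowest, and at 1.46, 1.25 and 1.35 in sid2. The 514 genes stood at -2.05, -1.53 and -0.63 in triple mutant Pma and at -1.78, -1.82 and -1.29 in sid2 Pma. Experiment 3 was the closest to wild-type mock in both. These values share the wild-type mock mean on which the genes were chosen, and the libraries entered the same fit, so they are given as a description.

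**Figure D2:**
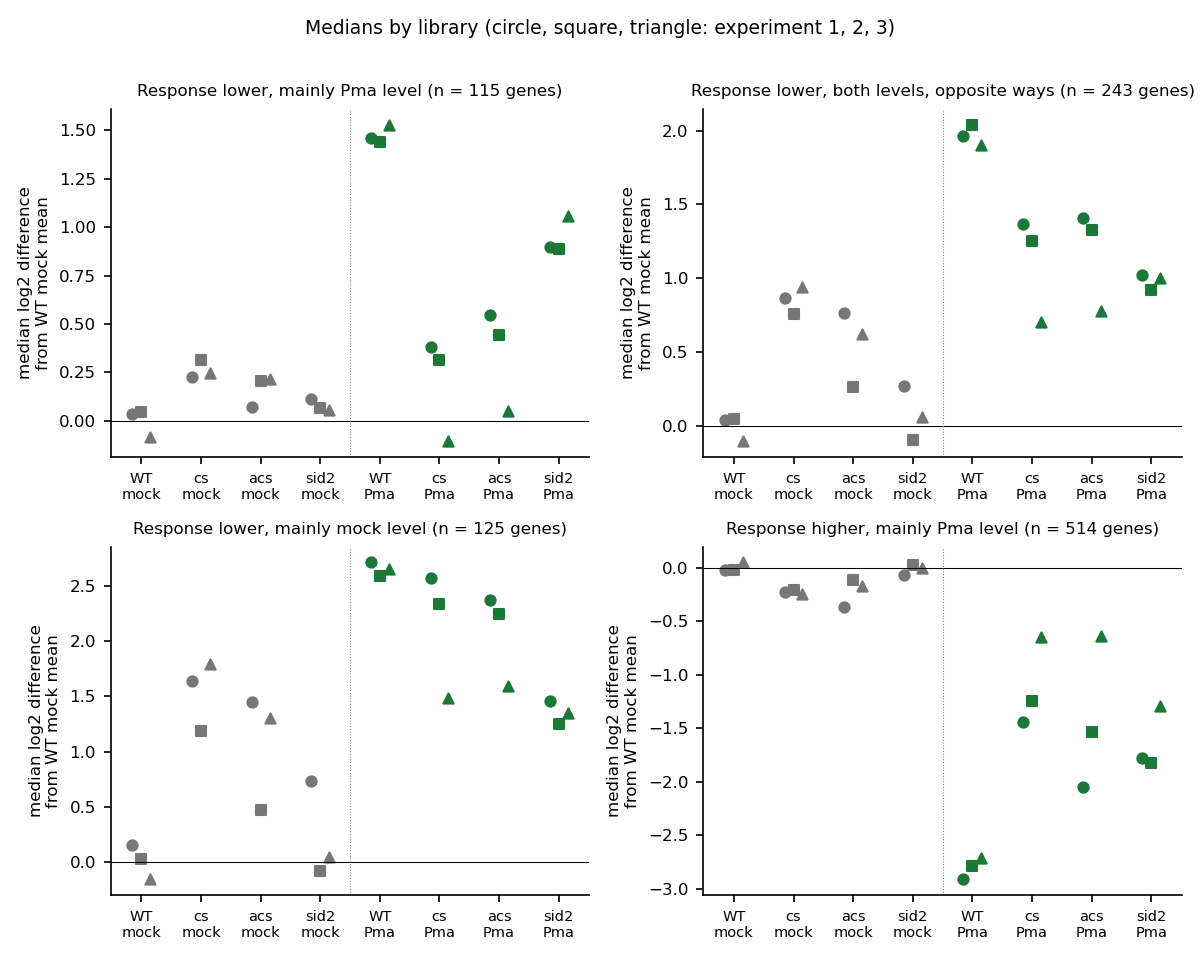
Median log2 difference from the wild-type mock mean (vertical) of the genes in 4 level classes in each library of wild type (WT), cbp60g sard1 (cs), cbp60a cbp60g sard1 (acs) and sid2; the dotted line parts mock from Pma. The genes were classed on the WT and cs libraries. In the mock class the cs mock libraries sit at 1.19 to 1.79. In the lower classes experiment 3 (triangles) is the closest to mock in both cs Pma and acs Pma.

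The mutated genes came first. SARD1 stood at 4.57, 2.93 and 3.76 CPM in wild-type mock, at 255, 217 and 278 in wild-type Pma, at 4.18, 10.6 and 9.82 in mutant mock, and at 9.04, 20.8 and 2.79 in mutant Pma. Only the wild-type Pma libraries were high, and the mutant Pma range overlapped both mock groups. Its response difference was -5.73 ± 0.95 (SE; adjusted p = 0.000653), with -4.54, -4.80 and -7.23 in the separate experiments. CBP60G stood at 13.1, 2.19 and 1.88 CPM in wild-type mock, at 257, 236 and 273 in wild-type Pma, at 7.32, 8.48 and 7.86 in mutant mock, and at 38.4, 51.0 and 28.5 in mutant Pma. Its mutant Pma libraries lay above all mock libraries and below all wild-type Pma libraries, so a reduced rise remained in the mutant (2.31 ± 0.47, adjusted p = 0.000109, against 5.44 ± 0.50 in wild type). CBP60G's response difference was -3.14 ± 0.68 (adjusted p = 0.00614). Where the alleles interrupt these genes is not given in the sources used here, so counts from the 3′ end may lie outside the mutated part and do not by themselves check the labels. SARD1 also overlaps the locus AT1G73790 in the annotation, and strand use in the counting is not stated. Of 7 tested CBP60 family genes, AT5G57580 also had a lower response, of -1.23 ± 0.29 (adjusted p = 0.00969).

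Among the genes of the isochorismate route to salicylic acid, the response of ICS1 was lower in the mutant. ICS1, the isochorismate synthase that makes the precursor of salicylic acid, stood at 17, 20.5 and 16 CPM in wild-type mock, 392, 462 and 773 in wild-type Pma, 8.89, 17.7 and 12.8 in mutant mock, and 57.6, 50 and 53.6 in mutant Pma. The infected groups did not overlap, while the mock groups did. Its response difference was -2.82 ± 0.64 (adjusted p = 0.00735), with a Pma level difference of -3.28 ± 0.44 (adjusted p = 4.58e-06) and a mock level difference of -0.46 ± 0.48 (adjusted p = 0.925). ICS1 thus belonged to the Pma class, and its rise in the mutant, 2.04 ± 0.46, still passed the test (adjusted p = 0.000314). PBS3, the enzyme that joins isochorismate to glutamate, had a response difference of -2.29 ± 0.82 that missed the threshold (adjusted p = 0.0823), while its Pma level was lower in the mutant by the level test (-1.59 ± 0.45, adjusted p = 0.0158). EDS5, the transporter that moves isochorismate out of the chloroplast, had -1.64 ± 0.96 (adjusted p = 0.323). Both genes rose strongly in each genotype: PBS3 reached 219 to 315 CPM in mutant Pma against 643 to 1174 in wild-type Pma, and EDS5 reached 273 to 384 against 597 to 772. Of the 5 tested genes of the route, ICS1 alone passed for the response (lower responses made up 3.19% of all tested genes), and the median response difference was -1.64, against 0.07 over all tested genes.

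On the route to N-hydroxypipecolic acid, FMO1, the monooxygenase that makes that compound, had 0 counts in all 3 wild-type mock libraries, so its levels are given in place of a fitted response difference. It stood at 874, 874 and 768 CPM in wild-type Pma, at 0, 3.53 and 0 in mutant mock, and at 70.6, 59.5 and 37.4 in mutant Pma, which did not overlap wild-type Pma. The Pma level difference was -3.93 ± 0.58 (adjusted p = 1.6e-05). ALD1, the aminotransferase that opens the route, stood at 607, 760 and 1594 CPM in wild-type Pma and at 293, 510 and 183 in mutant Pma. Those ranges did not overlap, but neither the response difference (-1.67 ± 1.77, adjusted p = 0.634) nor the Pma level difference (-1.47 ± 0.61, adjusted p = 0.112) passed. Without the cbp60g sard1 mock library of experiment 2, the ALD1 response difference was 2.2 (adjusted p = 0.71), and without experiment 2 it was 1.43 (adjusted p = 0.814), so its sign rests on a few mock counts. AT5G52810, also on the list of this route, had a response difference of -3.46 ± 0.64 (adjusted p = 0.00181) and overlaps the locus AT5G52800. The sequences 250 bases ahead of the annotated starts of these genes are shown because the element GAAATTT is known as a binding sequence of CBP60g and SARD1. They come from RefSeq's TAIR10.1 assembly and run 5′ to 3′ towards the gene, with every GAAATTT, on either strand, in capitals.
ICS1: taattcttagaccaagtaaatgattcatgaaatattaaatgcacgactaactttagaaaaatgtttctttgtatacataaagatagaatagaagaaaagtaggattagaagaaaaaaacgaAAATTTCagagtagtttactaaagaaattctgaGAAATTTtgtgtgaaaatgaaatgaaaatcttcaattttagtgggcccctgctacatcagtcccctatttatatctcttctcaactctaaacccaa
FMO1: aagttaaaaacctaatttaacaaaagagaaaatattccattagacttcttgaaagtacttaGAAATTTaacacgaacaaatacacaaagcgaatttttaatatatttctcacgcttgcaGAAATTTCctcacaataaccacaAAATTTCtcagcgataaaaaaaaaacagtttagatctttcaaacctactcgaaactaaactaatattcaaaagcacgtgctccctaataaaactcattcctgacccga
ALD1: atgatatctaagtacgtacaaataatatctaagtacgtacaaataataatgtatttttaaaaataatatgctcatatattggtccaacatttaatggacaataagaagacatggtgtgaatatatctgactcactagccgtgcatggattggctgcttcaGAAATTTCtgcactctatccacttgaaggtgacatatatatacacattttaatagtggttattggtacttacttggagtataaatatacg
GRXS13: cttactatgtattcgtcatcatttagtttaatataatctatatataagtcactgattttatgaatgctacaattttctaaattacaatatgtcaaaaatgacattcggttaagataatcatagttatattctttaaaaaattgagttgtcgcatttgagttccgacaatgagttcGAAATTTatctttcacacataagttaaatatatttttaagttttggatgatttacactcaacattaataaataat
WRKY70: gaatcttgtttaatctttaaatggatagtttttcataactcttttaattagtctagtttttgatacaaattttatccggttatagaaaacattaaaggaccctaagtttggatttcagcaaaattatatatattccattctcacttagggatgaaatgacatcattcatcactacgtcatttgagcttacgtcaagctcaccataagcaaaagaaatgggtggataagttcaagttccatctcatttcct

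The windows lie at chr1:28070045-28070294 on the plus strand for ICS1, chr1:6653196-6653445 on the minus strand for FMO1, chr2:5768167-5768416 on the plus strand for ALD1, chr1:977912-978161 on the minus strand for GRXS13 and chr3:20910624-20910873 on the minus strand for WRKY70. ICS1 held 2 matches, 129 and 96 bases ahead of the start, FMO1 held 4, ALD1 held 2 and GRXS13 held 1. The sequence GAAATTTC reads as a match on both strands and was counted as 2 overlapping matches, as in ALD1. WRKY70, taken from the mock class, held none, while CRK45 of the same class held 2. Windows not printed here also lacked the element for PBS3, EDS5 and AT5G52810 of the same routes. Those of SARD1, CBP60G, PR1, PCR1 and LURP1 lacked it too. Over the genes, the element was about as frequent among calls as elsewhere: 13.0% of the 15076 windows of tested genes held it, 13.5% of the windows of genes with a lower response and 12.3% of those with a higher response. Within the lower calls it was in 13.9% of the Pma class, 11.2% of the mock class and 14.4% of the class with both. The W-box core TTGAC, bound by WRKY factors, was in 45.2% of all windows, 52.2% of lower and 37.8% of higher windows, and 57.6% of the mock class. The element TGACG, bound by TGA factors, was in 19.8% of all windows, 25.1% of lower and 20.2% of higher windows, and TTGACG counts for both motifs. The G-box CACGTG was in 7.74%, 4.14% and 9.17%. These shares cover both strands of 250 bases, carry no test and describe letters, not binding.

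Genes that respond to salicylic acid held several of the lower responses. Of 17 tested genes of the list, 8 had a lower response and 0 a higher one, with a median response difference of -2.69, and the background for lower calls was 3.19%. The median mock level difference was 1.53, above 0 in 16 of 17 members (49.1% of all tested genes were above 0), and the median Pma level difference was -0.64. Taken alone, 1 member, the wall-associated kinase WAK1, passed for a raised mock level and 4 for a lower Pma level, against 0.455% and 4.21% of all tested genes. No gene passed for the mock level in edgeR without the wild-type mock library of experiment 1. Without the cbp60g sard1 Pma library of experiment 3, 3 of the 17 had a lower response, and without experiment 3, 1. Over all genes, the lower responses in these 2 settings numbered 142 and 9. The list was chosen with earlier results of these data known.

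PR1, the antimicrobial protein used as the standard readout of salicylic acid, stood at 3.92, 1.46 and 4.70 CPM in wild-type mock, 7341, 4471 and 6929 in wild-type Pma, 8.89, 48.1 and 24.6 in mutant mock, and 248, 50 and 11.7 in mutant Pma. Every mutant mock library was above every wild-type mock library, and mutant Pma overlapped mutant mock. Its response difference was -10.00 ± 1.80 (adjusted p = 0.00156), made of -6.55 ± 1.22 at the Pma level (adjusted p = 0.000414) and 3.45 ± 1.42 at the mock level (adjusted p = 0.462). LURP1, a gene that rises late in resistance to oomycetes, showed the same arrangement at higher counts, with 74.4, 112 and 57.4 CPM in wild-type mock, 1306, 1433 and 1316 in wild-type Pma, 574, 372 and 602 in mutant mock, and 447, 369 and 98.9 in mutant Pma. Mutant mock and mutant Pma overlapped, each lying between the wild-type groups apart from the experiment 3 Pma library. The response difference of LURP1 was -4.96 ± 0.95 (adjusted p = 0.0025). PCR1, a small cysteine-rich membrane protein of cadmium resistance, rose from 43.3 to 68.0 CPM in wild-type mock to 5920 to 6803 in wild-type Pma. It stood at 260, 168 and 452 CPM in mutant mock and at 1099, 615 and 48.6 in mutant Pma, so experiment 3 ended below its own mock library. Its response difference was -6.10 ± 1.21 (adjusted p = 0.00341).

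GRXS13, a glutaredoxin, was the named gene with the largest response difference among those of the Pma class. It stood at 1.96, 5.12 and 0 CPM in wild-type mock, 189, 140 and 107 in wild-type Pma, 5.75, 8.48 and 7.86 in mutant mock, and 6.78, 4.72 and 1.12 in mutant Pma. Only wild-type Pma was high, and the mutant showed no called change after Pma (-0.87 ± 0.70, adjusted p = 0.296). The response difference was -6.68 ± 0.98 (adjusted p = 0.000381), and it stayed past the threshold in all 20 other settings tried. PR2, a glucanase, is another standard readout. It stood at 13.7, 9.51 and 16 CPM in wild-type mock, 1233, 712 and 1786 in wild-type Pma, 17.3, 21.9 and 24.6 in mutant mock, and 3491, 2319 and 1948 in mutant Pma, with every mutant Pma library above every wild-type one. Its response difference was 0.23 ± 1.22 (adjusted p = 0.953). Among the 17 tested salicylic acid response genes, 0 passed for a higher Pma level, against 8.88% of all tested genes. The response of PR5, which encodes a thaumatin-like protein, differed by 0.81 (adjusted p = 0.69).

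**Figure D3:**
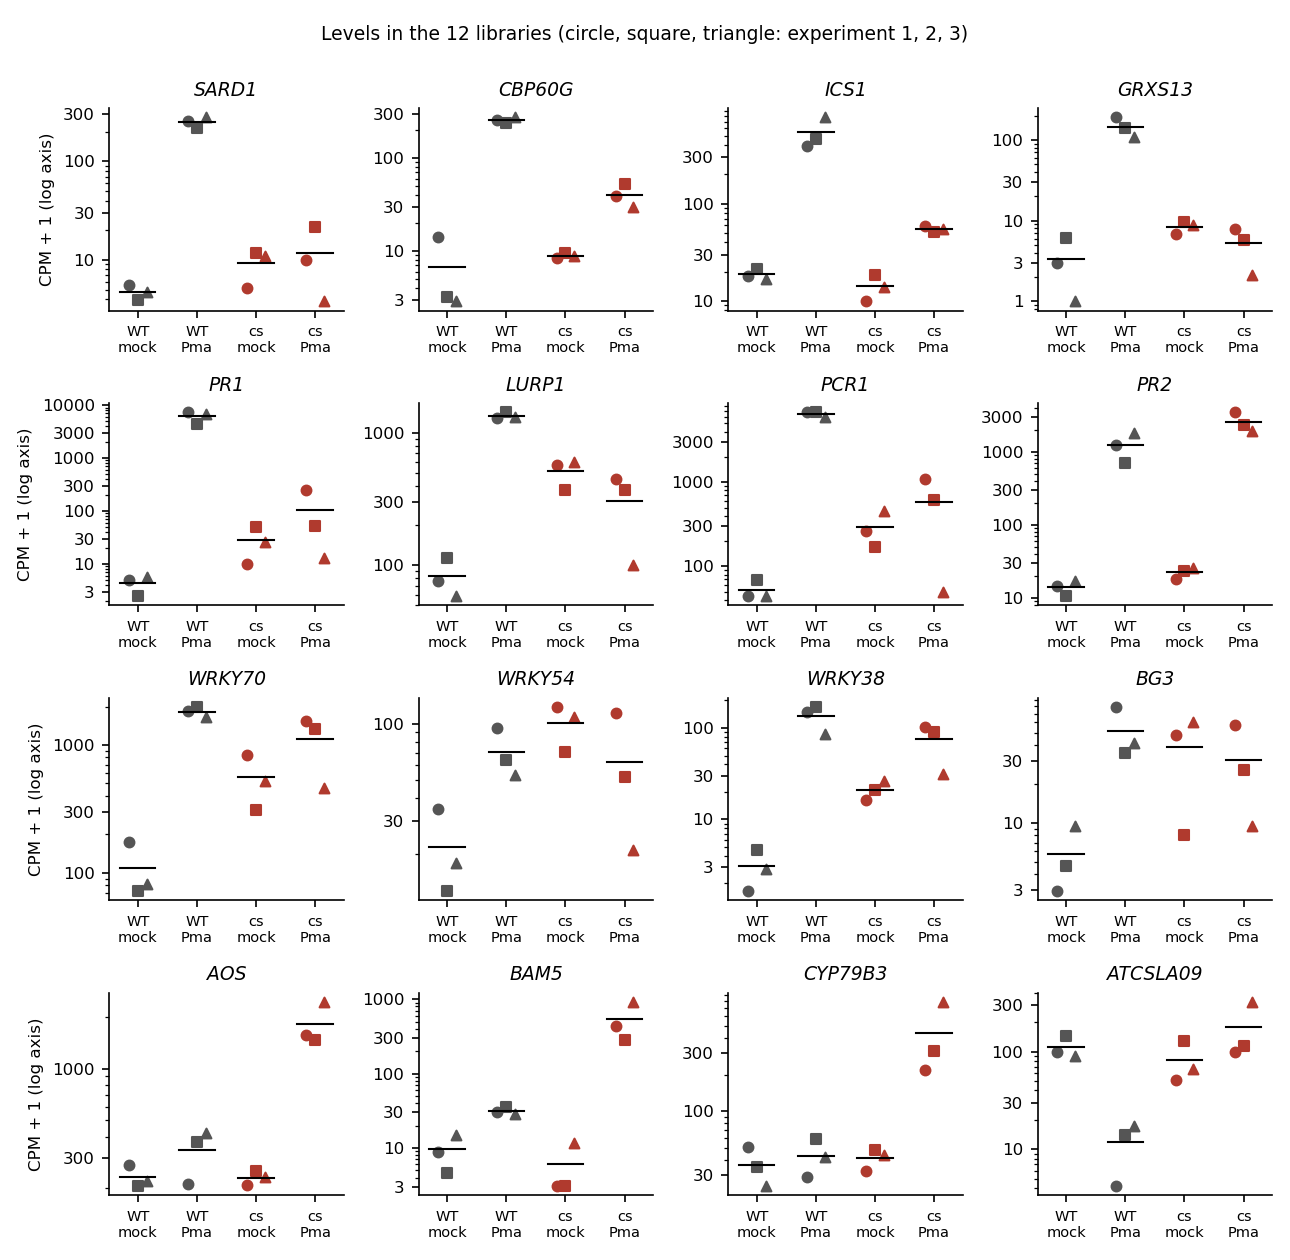
CPM + 1 (log axis, a separate range per gene) of 16 genes in the 12 libraries of wild type (WT) and cbp60g sard1 (cs); points are libraries and bars are group means. SARD1, ICS1, GRXS13 and PR1 are highest in WT Pma, with ICS1 also above mock in cs Pma; every cs mock library of WRKY70, WRKY54 and LURP1 is above every WT mock library, and AOS, BAM5 and CYP79B3 are highest in cs Pma.

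The NPR receptors and their NIMIN repressors were split. NIMIN1 and NIMIN-2, small proteins that bind NPR1 and dampen PR1, had lower responses of -4.67 ± 1.06 (adjusted p = 0.00746) and -4.53 ± 0.94 (adjusted p = 0.00428). NIMIN1 stood at 2.61, 6.58 and 0.94 CPM in wild-type mock and at 35, 21.2 and 29.5 in mutant mock, against 68.2, 87.5 and 43.2 in wild-type Pma and 35.6, 28.3 and 8.38 in mutant Pma. Mutant mock and mutant Pma overlapped, and all mutant mock libraries were above all wild-type mock libraries. NPR4, a salicylic acid receptor that represses transcription, had -2.18 ± 0.66 (adjusted p = 0.0404), while NPR1 (-0.63, adjusted p = 0.32), NPR3 (-0.34, adjusted p = 0.75) and NIMIN-3 (0.53, adjusted p = 0.59) did not pass. DMR6, a hydroxylase that inactivates salicylic acid, had -3.06 ± 0.77 (adjusted p = 0.0155). The adjusted p was 0.148 for NPR4 and 0.072 for DMR6 when the cbp60g sard1 Pma library of experiment 3 was left out.

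Of 17 tested WRKY transcription factors of defence, 5 had a lower response and 0 a higher one, against 3.19% and 3.62% of all tested genes. The response difference was below 0 in all 17 with a median of -1.47, and 3 (WRKY70, WRKY54 and WRKY25) passed the test of a raised mock level, against 0.455% of all tested genes. No gene passed that mock test in edgeR without the wild-type mock library of experiment 1 or 3. None did without the cbp60g sard1 mock library of experiment 3 either. WRKY70, which acts downstream of salicylic acid, stood at 174, 70.9 and 79.9 CPM in wild-type mock, 1834, 1984 and 1652 in wild-type Pma, 841, 312 and 520 in mutant mock, and 1533, 1342 and 464 in mutant Pma. Mutant mock lay above wild-type mock without overlap, and mutant Pma lay below wild-type Pma, most of all in experiment 3. The response difference of WRKY70 was -3.25 ± 0.72 (adjusted p = 0.00636), with a mock level difference of 2.41 ± 0.52 (adjusted p = 0.025) and a Pma level difference of -0.85 ± 0.49 (adjusted p = 0.286). WRKY54, its close relative, stood at 33.9, 11.7 and 16.9 CPM in wild-type mock, 94.0, 63.0 and 52.2 in wild-type Pma, 122, 70.0 and 107 in mutant mock, and 113, 51.0 and 20.1 in mutant Pma. All mutant mock libraries were above all wild-type mock libraries and overlapped infected wild type, and its response difference was -2.75 ± 0.61 (adjusted p = 0.00696; mock level difference 2.39 ± 0.45, adjusted p = 0.0129). WRKY53, a factor of senescence and basal defence, belonged to the Pma class, at 121, 114 and 84.1 CPM in wild-type Pma and 28.8, 22.7 and 13.4 in mutant Pma (response difference -3.04 ± 0.70, adjusted p = 0.00832). Without the cbp60g sard1 Pma library of experiment 3, 3 of the 17 had a lower response, as did 142 over all genes. WRKY70 then had -2.96 (adjusted p = 0.0382) and WRKY54 -2.39 (adjusted p = 0.0401).

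Other genes of the mock class included WRKY38, a repressor of basal defence, and BG3, a glucanase close to PR2 on chromosome 3. WRKY38 stood at 0.65, 3.66 and 1.88 CPM in wild-type mock, 148, 169 and 85.8 in wild-type Pma, 15.2, 19.8 and 25.5 in mutant mock, and 103, 88.7 and 30.7 in mutant Pma. Every mutant mock library was above every wild-type mock library, while the Pma groups overlapped. The response difference of WRKY38 was -4.29 ± 1.23 (adjusted p = 0.0309) and that of BG3 -3.78 ± 0.94 (adjusted p = 0.0129), and for neither did the mock level itself pass (adjusted p = 0.176 and 0.0576). The serine carboxypeptidase-like gene scpl16 (-3.71 ± 0.97, adjusted p = 0.0185) and the metacaspase MC2 (-3.46 ± 0.99, adjusted p = 0.0314) completed the named genes of this class. These 4 lost their call without the cbp60g sard1 Pma library of experiment 3, with adjusted p of 0.0946, 0.0609, 0.0688 and 0.107 in that order.

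Of 19 tested receptors and early signalling components of pattern-triggered immunity, 3 had a lower response, against 3.19% of all tested genes, and 2 of the 3 fell in the mock class. The 3 were MPK11, a MAP kinase, at -3.54 ± 0.72 (adjusted p = 0.00374), SOBIR1, the co-receptor of receptor-like proteins, at -2.22 ± 0.59 (adjusted p = 0.0207), and CERK1, the chitin receptor kinase, at -1.38 ± 0.43 (adjusted p = 0.0457). SOBIR1 stood at 31.3, 24.1 and 15 CPM in wild-type mock and 75.3, 40.3 and 82.5 in mutant mock, and the Pma groups, at 249, 291 and 269 and at 168, 224 and 108, did not overlap either. The flagellin receptor FLS2 had -1.18 (adjusted p = 0.43) and its co-receptor BAK1 -0.36 (adjusted p = 0.57). Among cysteine-rich and wall-associated receptor kinases, 3 of 17 had a lower response (3.19% of all tested genes), WAK2, WAK3 and CRK45, all in the mock class, and the median response difference was -1.98. On the list of the EDS1 family and its helpers, with 7 tested genes, 1 had a lower response, again against 3.19%. That gene was NDR1, which was listed with them but is of neither group (-1.87 ± 0.50, adjusted p = 0.0228). Of the EDS1 family itself, EDS1 (-1.46, adjusted p = 0.099) and PAD4 (-1.60, adjusted p = 0.12) did not pass. Without the cbp60g sard1 Pma library of experiment 3 the counts were 1 of 19, 0 of 17 and 0 of 7. Over all genes 142 then had a lower response.

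Further genes of the Pma class with a lower response were named by size. NUDT6, a Nudix hydrolase, stood at 425, 234 and 374 CPM in wild-type Pma and at 54.8, 25.5 and 8.94 in mutant Pma, with all mock libraries at or below 10.8, and its response difference was -4.64 ± 1.18 (adjusted p = 0.0162). PUB54, a U-box protein, reached 208, 329 and 259 CPM in wild-type Pma and 44.6, 19.8 and 11.2 in mutant Pma (-4.35 ± 1.29, adjusted p = 0.0353). For both genes the infected groups did not overlap. GPAT3, a glycerol-3-phosphate acyltransferase, differed in kind: it held 45.7, 35.2 and 20.8 CPM in wild-type Pma, within its mock range of 18.8 to 67.9, and fell to 4.52, 7.55 and 0.56 in mutant Pma (-3.22 ± 0.92, adjusted p = 0.0324). NAC003, a NAC factor, and G6PD4, a glucose-6-phosphate dehydrogenase, had -3.13 ± 0.93 (adjusted p = 0.038) and -3.13 ± 0.75 (adjusted p = 0.0109). NAP, a NAC factor of leaf senescence, had -2.98 ± 0.85 (adjusted p = 0.031). The chitin-binding defence protein PR4 and the chaperone CRT3, a calreticulin needed for receptor folding, differed at both levels, with -2.95 ± 0.78 (adjusted p = 0.0207) and -2.38 ± 0.57 (adjusted p = 0.0106). Without the cbp60g sard1 Pma library of experiment 3 the calls of NUDT6, PUB54, GPAT3, NAC003, NAP, PR4 and CRT3 were lost, with adjusted p from 0.0579 for CRT3 to 0.113 for NAP.

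Responses that were higher in the mutant included those of AOS and AOC1 of jasmonate synthesis. AOS, the allene oxide synthase, stood at 270, 205 and 220 CPM in wild-type mock, 211, 371 and 420 in wild-type Pma, 207, 249 and 232 in mutant mock, and 1577, 1462 and 2463 in mutant Pma. Only the mutant Pma libraries were high, without overlap. The response difference of AOS was 2.45 ± 0.44 (adjusted p = 0.00141), its mock level difference was -0.02 ± 0.31, and the wild-type response did not pass (0.49 ± 0.31, adjusted p = 0.16). AOC1, an allene oxide cyclase, had 2.71 ± 0.81 (adjusted p = 0.0392, and 0.121 without the cbp60g sard1 Pma library of experiment 3), and of 13 tested genes of the pathway 2 had a higher response and 0 a lower one, while 7 had a higher Pma level. Over all tested genes 3.62% had a higher response and 8.88% a higher Pma level. The median response difference was 0.69 and the median Pma level difference 1.27. Beyond synthesis, TPS10, a terpene synthase of the jasmonate response, had 0 counts in mutant mock. It stood at 24.7, 50.7 and 116 CPM in wild-type Pma and at 800, 452 and 1958 in mutant Pma, a Pma level difference of 4.04 ± 0.53 (adjusted p = 1.44e-06). The storage protein VSP1 ranged widely in wild-type Pma (40.3, 677 and 213 CPM) and stood at 2108, 2328 and 8994 in mutant Pma, above all of them. Its Pma level difference passed (3.42 ± 0.94, adjusted p = 0.0121) and its response difference did not (4.54 ± 1.90, adjusted p = 0.143). BSMT1, the methyltransferase that makes volatile methyl salicylate, likewise passed at the Pma level (2.05 ± 0.63, adjusted p = 0.0228) and not for the response (3.69 ± 1.46, adjusted p = 0.113). Of 9 JAZ repressors none passed for the response in edgeR, and 1 had a higher Pma level.

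Some genes of indole and aliphatic glucosinolate synthesis were also higher in the infected mutant. CYP79B3, which converts tryptophan to the oxime shared by indole glucosinolates and camalexin, stood at 49.6, 33.6 and 23.5 CPM in wild-type mock, 27.9, 58.1 and 40.9 in wild-type Pma, 31.4, 47.4 and 43.2 in mutant mock, and 216, 312 and 790 in mutant Pma. The mutant Pma libraries alone were high. CYP79B3's response difference was 3.14 ± 0.66 (adjusted p = 0.00487), and IGMT5, a methyltransferase of indole glucosinolates, had 5.15 ± 1.1 (adjusted p = 0.00374). CYP79B3 was the 1 higher call among 16 tested genes of the camalexin and tryptophan list, with 0 lower (3.62% and 3.19% of all tested genes). The response difference of these 16 was below 0 in 12 and above 0 in 4, with a median of -0.65. PAD3, the last enzyme of camalexin synthesis, reached 847, 479 and 722 CPM in wild-type Pma and 1077, 728 and 713 in mutant Pma, ranges that overlapped, with a response difference of -1.37 ± 1.25 (adjusted p = 0.568). Of 14 tested aliphatic glucosinolate genes, 2 had a higher response, BAT5 and BCAT4, and 9 a higher Pma level, with 1 lower, against 3.62%, 8.88% and 4.21% of all tested genes. Their median response difference was 2.16. BCAT4, the aminotransferase that opens methionine chain elongation, fell from 224, 218 and 134 CPM to 31.2, 9.82 and 17.9 in wild type and stood at 155, 252 and 185 in mutant mock and 62.2, 137 and 312 in mutant Pma. Its mutant groups overlapped, and its response difference was 2.99 ± 0.95 (adjusted p = 0.0495). Of the 14, 0 had a higher response in edgeR once the cbp60g sard1 Pma library of experiment 3 was left out. Over all genes 139 then had a higher response.

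The higher responses named by size were BAM5, ATCSLA09, MES7, TT4, MSRB6, NAI2, TRFL8 and IGMT5. BAM5, a beta-amylase, stood at 7.83, 3.66 and 14.1 CPM in wild-type mock, 29.6, 34.4 and 28 in wild-type Pma, 2.09, 2.12 and 10.8 in mutant mock, and 435, 279 and 922 in mutant Pma. Each mutant Pma library was above all the others. Its response difference was 4.76 ± 0.92 (adjusted p = 0.00267). ATCSLA09, a glucomannan synthase, fell in wild type from 98.5, 142 and 88.4 CPM to 3.22, 13.1 and 16.3, while the mutant held 49.7, 129 and 64.8 in mock and 98.3, 112 and 322 after Pma. Only wild-type Pma was low. The response difference of ATCSLA09 was 4.57 ± 0.76 (adjusted p = 0.000709), and it and BAM5 stayed past the threshold in all 20 other settings. MSRB6, a methionine sulfoxide reductase, fell in wild type (-3.10 ± 0.86, adjusted p = 0.00199) and rose in the mutant (1.70 ± 0.72, adjusted p = 0.0417). TT4, the chalcone synthase of flavonoid synthesis, fell in wild type from 44.4, 41.7 and 58.3 CPM to 0, 9 and 1.12 and stood at 10.2, 37.8 and 106 in mutant Pma (4.83 ± 0.97, adjusted p = 0.00289). MES7, a methyl salicylate esterase, had 5.72 ± 1.61 (adjusted p = 0.0283). NAI2, a protein of endoplasmic reticulum bodies, had 4.43 ± 1.3 (adjusted p = 0.0332) and TRFL8, a protein related to telomere-binding factors, 4.28 ± 1.04 (adjusted p = 0.0109). Of the class that differed at both levels, MSRB9, another methionine sulfoxide reductase, had 4.27 ± 1.32 (adjusted p = 0.0436), and the aquaporin DELTA-TIP fell from 523, 926 and 602 CPM to 7.52, 11.5 and 12.3 in wild type and from 313, 440 and 290 to 22.0, 35.9 and 43.6 in the mutant (2.66 ± 0.79, adjusted p = 0.0381). FOLB2, of folate synthesis, had 2.67 ± 0.64 (adjusted p = 0.0107) and LETM1, a mitochondrial protein, 2.32 ± 0.73 (adjusted p = 0.0495). MES7, MSRB6, NAI2, TRFL8, MSRB9, DELTA-TIP, FOLB2 and LETM1 lost their calls without the cbp60g sard1 Pma library of experiment 3, with adjusted p from 0.0504 for TRFL8 to 0.156 for DELTA-TIP.

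Nuclear genes for photosynthesis had a median log2 change after Pma of -3.56 in wild type and -1.95 in the mutant. Their response difference was above 0 in all 41 tested members, with a median of 1.59, and 12 of the 41 had a higher response, against a background of 3.62%. The Pma level was higher in the mutant for 34 (8.88% of all tested genes) and the median mock level difference was -0.08. RBCS3B, a Rubisco small subunit, stood at 7605, 7238 and 9112 CPM in wild-type mock, 432, 304 and 417 in wild-type Pma, 5905, 5322 and 7438 in mutant mock, and 1411, 935 and 2855 in mutant Pma. The infected groups did not overlap, and experiment 3 of the mutant was the highest. The response difference of RBCS3B was 2.44 ± 0.56 (adjusted p = 0.00808), that of PETE1, a plastocyanin, 2.26 ± 0.58 (adjusted p = 0.0174), and that of PSAL, a subunit of photosystem I, 1.71 ± 0.48 (adjusted p = 0.0302). The number of members called was unsteady. It was 1 without the cbp60g sard1 Pma library of experiment 3 and 1 without the replicate block. DESeq2 gave 30, and a fit of the 12 libraries alone gave 33. Over all genes, higher responses numbered 139, 150, 739 and 851 in the same order. The summed level of the 41 genes was 258900 to 298500 CPM in wild-type mock and 250300 to 271400 in mutant mock, and 21730 to 25510 in wild-type Pma and 46480 to 103500 in mutant Pma.

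Markers of other leaf cell types were measured in the same libraries. Of 6 epidermis markers 4 were tested. The sum of all 6 was 1628 to 1717 CPM in wild-type mock, 1202 to 1767 in mutant mock, 47.7 to 81.8 in wild-type Pma and 175 to 479 in mutant Pma. CUT1, an enzyme of cuticular wax synthesis, had a higher response (2.60 ± 0.75, adjusted p = 0.0329, and 0.0813 without the cbp60g sard1 Pma library of experiment 3). Of 7 guard cell markers 5 were tested, and 0 passed for the response. The sum of all 7 was 79.9 to 100.2 CPM in wild-type mock, 61.9 to 80.5 in mutant mock, 116 to 163 in wild-type Pma and 78.6 to 99.1 in mutant Pma. The 8 phloem markers summed to 658 to 794, 725 to 876, 827 to 880 and 966 to 1277 CPM in the same order, and 0 passed. Their part in the photosynthesis result was not tested, and in whole leaves fewer cells of a type and less RNA per cell cannot be told apart.

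Of 13 tested expansins and xyloglucan enzymes, which loosen the cell wall, 3 had a higher response and 0 a lower one, against 3.62% and 3.19% of all tested genes, with a median response difference of 1.99. XTH6, a xyloglucan endotransglucosylase, fell in wild type from 202, 343 and 203 CPM to 3.76, 16.4 and 2.24, and in the mutant from 170, 291 and 120 to 59.9, 39.7 and 101. The infected groups did not overlap, and the response difference was 3.76 ± 0.75 (adjusted p = 0.00365). EXPA10, an expansin, behaved otherwise: it stood at 12.9, 19.6 and 15.7 CPM in wild-type Pma and at 42.4, 182 and 286 in mutant Pma, above mutant mock at 3.66, 4.24 and 4.91 (4.1 ± 0.89, adjusted p = 0.00624).

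**Figure D4:**
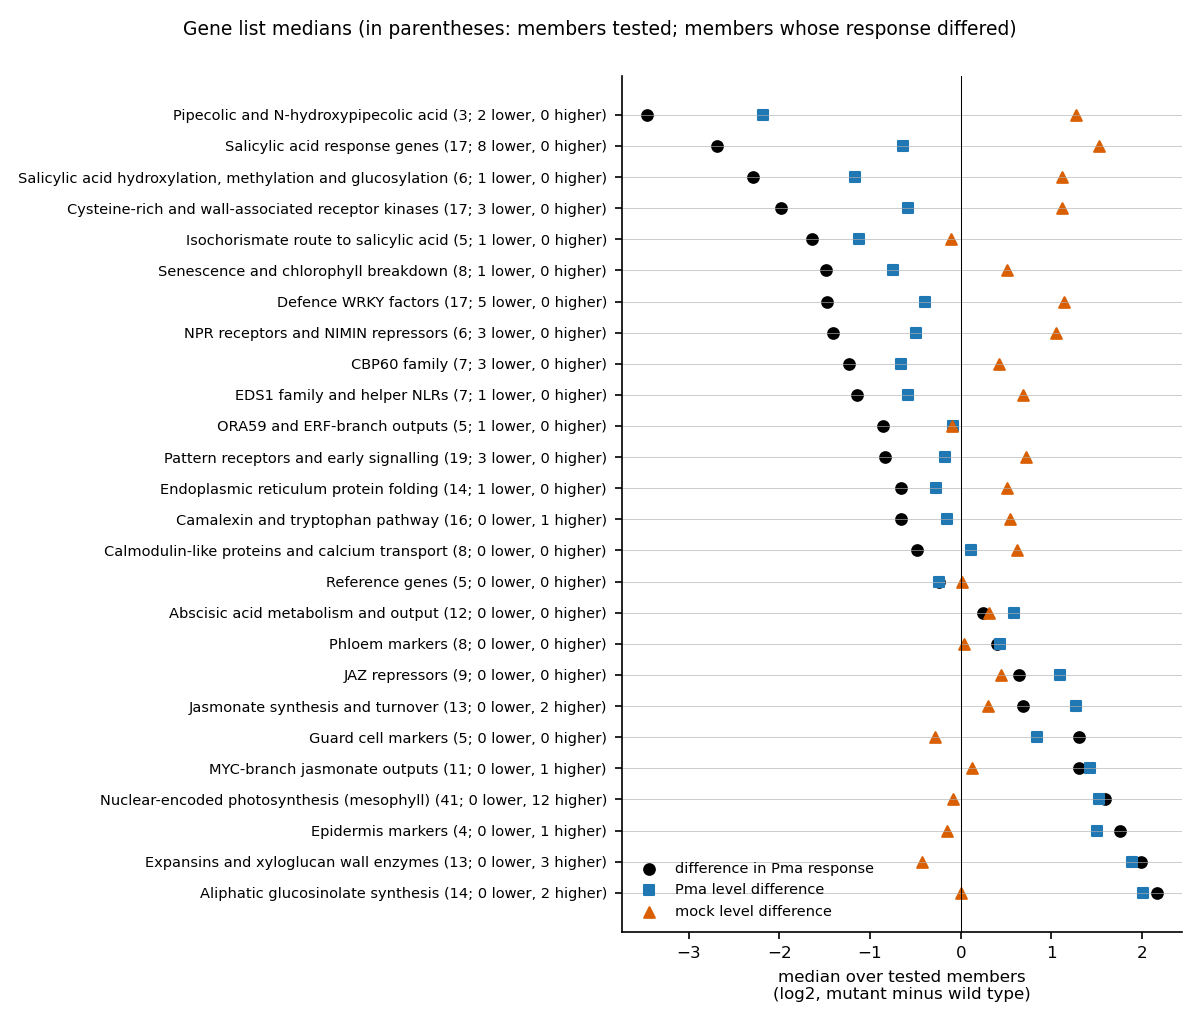
Median over the tested members of 26 gene lists of the response difference, the Pma level difference and the mock level difference (horizontal, log2, mutant minus wild type); brackets after each name give the members tested and those with a lower or higher response. Salicylic acid response genes have a mock median of 1.53, while photosynthesis genes have a mock median of -0.08 and a Pma median of 1.53.

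Of the 26 lists, those not described above gave few calls. Abscisic acid genes (12 tested), calcium signalling genes (8) and the 5 reference genes had none for the response in edgeR, and the reference genes had a median response difference of -0.24. Protein folding genes of the endoplasmic reticulum had 1 of 14 lower, CRT3, against 3.19% of all tested genes, and the response difference was below 0 in all 14, with a median of -0.66.

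The sid2 mutant, which lacks functional ICS1, allows a comparison of 2 mutants in which salicylic acid synthesis is impaired. Salicylic acid itself is not among the measurements used here, so its levels in the 2 mutants cannot be compared. The difference of their responses was tested directly without the wild-type libraries. The response of cbp60g sard1 differed from that of sid2 for 74 genes (0.488%), with 54 lower and 20 higher, and 1729 genes had an unadjusted p under 0.05. Of the 74, 36 also differed from wild type, 28 of them lower and 8 higher. WAK3, a wall-associated kinase, stood at 1.96, 0 and 0.94 CPM in wild-type mock, 328, 271 and 337 in wild-type Pma, 4.18, 4.95 and 7.86 in cbp60g sard1 mock and 281, 164 and 165 in cbp60g sard1 Pma, while sid2 held 0.71, 0 and 0 in mock and 291, 192 and 384 after Pma. The mock counts of WAK3 were few, 23 in all in cbp60g sard1 against 4 in wild type, 1 in sid2 and 7 in the triple mutant. Its mock level did not pass against wild type (0 of 17 on its list did). Its response call against wild type was lost in 14 of 20 other settings. The response difference of WAK3 from sid2 passed with an adjusted p of 0.046, as did that of CRK45, a cysteine-rich receptor kinase (-3.38, adjusted p = 0.046). ATCSLA09 passed in the other direction (3.10, adjusted p = 0.039). GSTU19, a glutathione transferase chosen after its values were seen, stood at 352 ± 30.8 CPM (SD, n = 3) in wild-type mock and 5099 ± 453 in wild-type Pma, and at 380 ± 41.3 in sid2 mock and 3613 ± 531 in sid2 Pma. In cbp60g sard1 it stood at 355 ± 30.7 in mock and 675 ± 82.0 after Pma, below both other infected groups by more than their spread. Its response was lower than in sid2 (-2.33 ± 0.43, adjusted p = 0.00977) and lower than in wild type (-2.93, adjusted p = 0.000381). NSP5, a nitrile-specifier protein of glucosinolate breakdown and chosen in the same way, stood at 439 ± 52.5 CPM in wild-type Pma, 656 ± 203 in sid2 Pma and 129 ± 41.9 in cbp60g sard1 Pma (-2.25 ± 0.37 against sid2, adjusted p = 0.00358). By contrast, PR1 reached 70.7, 22.1 and 56.7 CPM in sid2 Pma, overlapping cbp60g sard1 Pma, and its response did not pass between the mutants (-1.72, adjusted p = 0.77). The count of 74 rested on few libraries as well: it was 3 without experiment 2, 14 without experiment 3 and 31 without experiment 1, and between 25 and 50 when any single cbp60g sard1 library was left out, lowest without the Pma library of experiment 1.

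The triple mutant cbp60a cbp60g sard1 carries a further mutation in the family member CBP60a. No gene passed for a response difference between cbp60g sard1 and the triple mutant (0 of 15161, 0.0%, in edgeR, and 0 in DESeq2), and 384 had an unadjusted p under 0.05. That the test found none does not show that the responses were alike. PR1 stood at 29, 5.04 and 7.03 CPM in triple mutant mock and at 469, 85.4 and 10.6 after Pma, ranges that overlapped those of cbp60g sard1.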

How the data were processed

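Leaf RNA was profiled by Smart-3SEQ, which tags 3′ ends, in 42 libraries, of which 12 make up the comparison. The authors deposited whole-number counts per locus. Per the labels' protocols, reads begin with a 5-base molecular tag and GGG. Per the submitters' processing notes, bcl2fastq 2.17.1.14, STAR 2.4.2a and the TAIR10 genome were used, while the counting tool, annotation release, strand use and removal of PCR copies are not given in the sources used here. Where copies were kept, counts are not independent molecules. The named genes G6PD4, WAK2, SARD1, IGMT5, SOBIR1, BSMT1, scpl16, DELTA-TIP, BCAT4, CRK45, WRKY53, EDS5, TT4 and AT5G52810 overlap another annotated locus, so their counts may include reads of it. Members of gene families with near copies (RBCS3B, LHCB1.1, VSP1, AOC1, MSRB6 and MSRB9) are likewise uncertain.

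Counts were tested with edgeR 4.0.16 (R 4.3.3; TMM scaling, factors 0.850 to 1.21; filterByExpr with a minimum count of 10; quasi-likelihood test; Benjamini-Hochberg adjustment). All 42 libraries were fitted with 14 groups and the experiment as a block, which left 26 residual degrees of freedom. Of 24843 loci, 15161 passed the filter. Errors are standard errors of the fit, derived from the F statistic. The replicate number marks the experiment in the study's design, so it pairs the libraries: deviations of same-numbered libraries from their group means correlated by 0.391, 0.316 and 0.0638 on average in experiments 1, 2 and 3. Single values per library are CPM of the TMM-scaled library. Genes with 3 or fewer counts in a group are given by their levels. The test was also run on simulated counts, from which no result is drawn here. Those counts held no shift between experiments that differed by group, so they do not bear on the weight of experiment 3.

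The mutated genes, 11 marker genes and, per list, up to 3 called genes of lowest adjusted p were named. So were the called genes with a symbol, at least 5 CPM in the highest group, more than 3 counts in every group and 1 sign in all experiments: the 8 with the largest change per direction in the Pma class and the 4 per direction in each other class. Members, lists (305 entries in 26 lists) and named genes were chosen with earlier results of these data known. Symbols came from the RefSeq table of TAIR10.1, which held 24701 of the loci. Alternatives were DESeq2 1.42.0, RLE size factors, no filter, no replicate block, a fit of the 12 libraries alone and other class ratios. Each of those 12 libraries and each experiment was also left out in turn.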

Additional observations from a re-analysis of the deposited data

Results flagged for a closer look

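Each of these values marks a difference between genotypes in the same Pma contrast, found by the test of the difference itself. The response differed between cbp60g sard1 and wild type for 1032 genes, and between cbp60g sard1 and sid2 for 74. Among genes fixed by name, the log2 response difference was -10.00 for PR1, -5.73 for SARD1, -3.25 for WRKY70, -3.14 for CBP60G and -2.82 for ICS1. Opposite directions, each passing its own test, occurred for 23 genes that rose in wild type and fell in cbp60g sard1, and for 25 that fell in wild type and rose in cbp60g sard1.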

How the results depend on the processing

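Without the replicate block, which the study's experiments supply, 315 genes differed in response, 165 lower and 150 higher, and 1171 differed at the Pma level, 10 at the mock level and 8 against sid2. A fit of the 12 libraries alone gave 851 higher responses. With a class ratio of 1.5 in place of 2, 31.1% of lower calls fell in the class with both levels, and with 3, 14.9% fell in the mock class. Leaving out each of the 12 libraries or each experiment in turn gave 28 to 1055 response differences (9 to 483 lower, 19 to 577 higher). Pma level differences then numbered 506 to 1975 and mock level differences 0 to 86. Against sid2 and the triple mutant, where only cbp60g sard1 libraries or whole experiments were left out, the counts were 3 to 50 and 0 to 0. The class shares then ranged from 18.6% to 33.3% (Pma), 19% to 30.8% (mock) and 43.7% to 56.4% (both) of lower calls, and from 90.3% to 96.3% (Pma) of higher calls. DESeq2 gave 1227 response differences, RLE size factors 1045 and no filter 820, and in these 3 settings no called gene changed sign. RLE size factors and DESeq2 moved the median response difference of all genes to 0.106 and 0.107. For the 68 named genes, 979 of 1359 values under other settings kept their direction and their side of the threshold, 368 kept the direction and lost the threshold, 6 gained it, and 6 changed sign in the uncalled ALD1 and PR2. The depth limits genes with few mock counts, such as FMO1, TPS10 and ALD1.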
